A study of Mus musculus with 6 samples.

Results

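Small nucleolar RNAs (snoRNAs) are short stable RNAs that work as guides in the nucleolus. C/D snoRNAs, named Snord, pair with ribosomal RNA and direct the methylation of its riboses by fibrillarin, whereas H/ACA snoRNAs, named Snora, direct the conversion of uridine to pseudouridine by dyskerin. Small Cajal body RNAs, named Scarna, are built on the same plans and guide the modification of the small nuclear RNAs of the spliceosome in Cajal bodies. In mammals most of them lie in introns of other genes, the host genes, and are cut out of the spliced intron, so that the level of the RNA and that of the host messenger RNA can differ.

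The RNAs described here were chosen by symbol and by measured counts. They are the rows of the count table named Snora, Snord or Scarna followed by a number, with at least 30 counts summed over the 6 libraries of both groups. Of 78275 rows, 167 bore such a name, 42 H/ACA, 115 C/D and 10 Cajal, and 35 passed the sum, 12 H/ACA, 18 C/D and 5 Cajal. The sum fixes which RNAs are high, so their levels are given as a description, while the difference between the groups was not used in the choice.

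Each of the 6 libraries came from the CD4-CD8+ TCRβhigh T cells of a single mouse, 3 of them WT and 3 BIT, and the comparison asks how RNA levels differ between the genotypes. WT mice were C57BL/6. BIT mice were homozygous for an allele in which the coding sequence of Psmb11, for the thymus-specific proteasome subunit β5t, was placed at the start codon of Psmb8, for the immunoproteasome subunit β5i. Of several BIT lines made, the study used one, BIT #1-2, except where it says otherwise, and the labels name none. All mice were 9 to 10 weeks old and male by the labels. Lymph nodes are named as the source, and the extraction notes also name spleens. Total RNA from silica columns was depleted of ribosomal RNA and made into stranded libraries, and the authors estimated the counts per gene with RSEM. Library totals were between 37467678 and 52922675 counts.

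The genotype was seen in each library. Psmb8, for which the WT mice had 8024 to 10790 counts, had 59 to 73 in the BIT mice, and Psmb11 had 0 in each WT and 1226 to 1926 in each BIT library. The library of WT replicate 3 goes against its label of male, as Xist had 66626 counts and 4 genes of the Y chromosome had none, so the main values are also given without it. The 5 markers of CD8 T cells, such as Cd8a and Cd3e, summed to 3368 to 3635 CPM (counts per 1000000 counts of the library) in the 6 libraries. Cd4 and Zbtb7b of CD4 T cells summed to 2.14 to 4.51 CPM, 4 B cell markers to 10.7 to 22.8 CPM and 4 myeloid markers to 7.04 to 14.5 CPM.

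The sequences of 7 of the RNAs show the 2 plans and the range of lengths. Positions are on GRCm39 (Gencode M39), and the sequences were read from that genome, 5′ to 3′. Capitals in the first 4 mark the C box letters TGATGA, searched in the first 40 bases, and the D box letters CTGA, searched in the last 20. Snord17 (chr2:144107899-144108136, minus strand) and Snora23 (chr7:109645571-109645754, plus strand) had the smallest p-values between the groups. Scarna6 (chr1:87712278-87712542, plus strand) carried the C box and D box letters near its ends. It was not searched for H/ACA parts further inside, so its full plan is not shown. Snord21 (chr5:108052421-108052514, plus strand) and Snord32a (chr7:44776806-44776888, minus strand) were the only members under 100 bases.
Snord17: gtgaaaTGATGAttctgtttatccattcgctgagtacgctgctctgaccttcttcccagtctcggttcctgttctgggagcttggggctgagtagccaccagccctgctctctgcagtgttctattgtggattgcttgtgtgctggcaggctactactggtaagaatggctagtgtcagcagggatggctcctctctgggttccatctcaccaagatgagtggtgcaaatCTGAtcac
Scarna6: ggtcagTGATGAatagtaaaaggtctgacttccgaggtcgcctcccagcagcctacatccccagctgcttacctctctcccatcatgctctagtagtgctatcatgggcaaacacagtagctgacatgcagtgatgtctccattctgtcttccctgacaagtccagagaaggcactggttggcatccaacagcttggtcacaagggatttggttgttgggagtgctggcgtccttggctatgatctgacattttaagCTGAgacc
Snord21: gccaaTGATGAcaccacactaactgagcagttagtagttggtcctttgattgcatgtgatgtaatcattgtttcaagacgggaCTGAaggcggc
Snord32a: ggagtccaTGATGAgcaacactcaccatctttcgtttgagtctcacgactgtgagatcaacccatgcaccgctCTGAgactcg

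In the H/ACA RNAs the capitals mark the ACA box, the letters ACA that stand 2 to 4 bases before the 3′ end. Snora73a (chr4:132080086-132080290, minus strand) and Snora73b (chr4:132079633-132079837, minus strand) are shown because they are near copies, identical at 198 of 205 aligned positions (96.6%), so reads can be shared between them.
Snora23: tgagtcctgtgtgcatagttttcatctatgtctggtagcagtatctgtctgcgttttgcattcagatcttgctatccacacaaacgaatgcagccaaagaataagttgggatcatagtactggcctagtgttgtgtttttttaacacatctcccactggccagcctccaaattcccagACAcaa
Snora73a: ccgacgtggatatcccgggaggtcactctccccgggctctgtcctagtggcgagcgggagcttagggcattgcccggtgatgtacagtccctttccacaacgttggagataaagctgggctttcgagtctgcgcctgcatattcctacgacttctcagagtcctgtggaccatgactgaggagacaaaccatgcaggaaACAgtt
Snora73b: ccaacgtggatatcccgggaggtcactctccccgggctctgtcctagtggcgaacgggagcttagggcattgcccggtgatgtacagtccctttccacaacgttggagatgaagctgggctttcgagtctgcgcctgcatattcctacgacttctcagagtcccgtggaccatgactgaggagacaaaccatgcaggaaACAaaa

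Among all listed rows, whatever their counts, the D box letters stood in 98.3% of the C/D rows and 11.9% of the H/ACA rows, and the C box letters, of which many snoRNAs carry other versions, in 65.2% and 0%. The ACA letters stood in 95.2% of the H/ACA rows and 2.61% of the C/D rows. The names therefore went with the sequences.

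Which of the RNAs were counted at all went with their length. Of the 91 listed RNAs shorter than 100 bases, 2 had a sum of at least 30 counts (2.2%), compared with 1 of 9 between 100 and 124 bases, 12 of 44 between 125 and 149 bases (27.3%) and 20 of 23 of 150 bases or more (87%). The median length was 196 bases in the members and 90 bases in the rows below the sum. C/D snoRNAs are mostly shorter than H/ACA snoRNAs, with a median of 87 against 132.5 bases over all listed rows, and 83 of the 115 C/D rows had 0 counts in all libraries. The same order was seen within the H/ACA class, where 7 of 36 rows of 125 to 149 bases and 5 of 5 longer rows were members. In the C/D class, 2 of 89 rows under 100 bases were members, whereas the shares were alike at 125 to 149 bases (4 of 5) and above (11 of 14). All C/D rows of 150 bases or more except Snord17 bore a name of U3 (Snord3a or Snord3b), and 10 of the members were such rows. Many of these are copies of the same RNA, so the rows at this length are not separate RNAs. They also enter the 20 of 23 and the median of 196 bases. These are counts over RNAs of the same 6 libraries and are a description. Why the counts went with length was not tested.

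**Figure D1:**
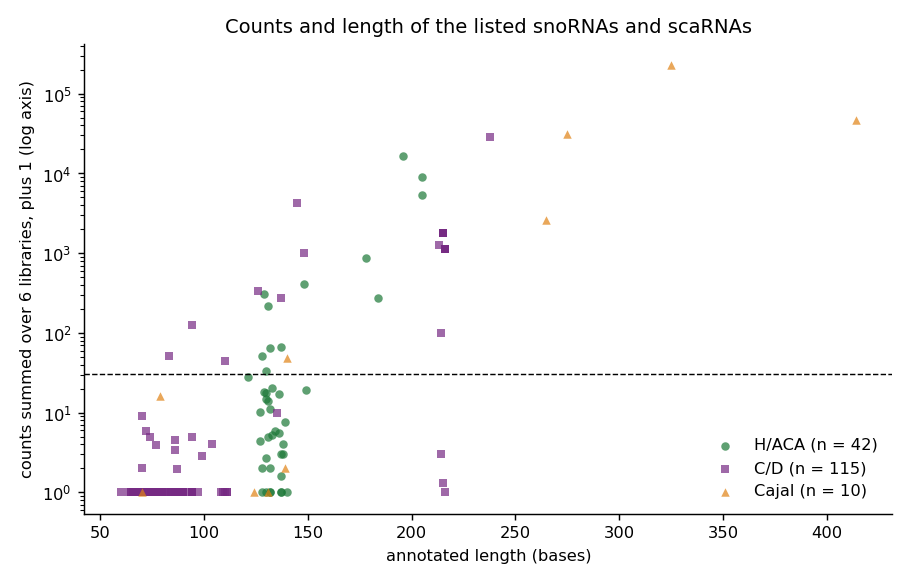
Counts summed over the 6 libraries plus 1 (log axis) against annotated length in bases, with 1 point for each of the 167 listed rows, by class. The dashed line is the sum of 30 counts, and the points below 100 bases lie almost all on the floor, at 0 counts, while 20 of the 23 rows of 150 bases or more lie above the line. Of these 20, 10 are rows of U3, many of them copies of the same RNA.

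Many well-known C/D snoRNAs had few or no counts in these data. Of the snoRNAs in introns of Rpl13a, which have been linked to the response to lipotoxic stress, Snord32a had 50 counts in all, Snord34 had 1, and Snord33 and Snord35a had 0. Of those in introns of Gas5, a noncoding host gene, Snord47 and Snord78 had 0, and the rows of Snord80 had 0 and 2.9. The rows named Snord14 had between 0 and 3.49 counts, Snord13, which acts in the maturation of the small-subunit ribosomal RNA, had 3, and Snord118, the U8 snoRNA of large-subunit maturation, had 9 although it is 135 bases long. A difference between the genotypes in these RNAs was not detectable at such low counts. Near the limit, Snora61 was the lowest member, with 32.64 counts, and Snora26 was the highest row outside, with 26.66.

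The members held 99.9% of the counts of all listed rows, and 79.1% of the members' counts were of the Cajal class. Scarna10 alone, which targets the U5 small nuclear RNA, took 58.4%. Which RNAs were counted went with length, so the shares and the values per kb may not give their order in the cells. Per length Scarna10 was also the highest, at a mean of 2578 CPM per kb over the 6 libraries. It was followed by Snord17, a guide for large-subunit ribosomal RNA, at 459 CPM per kb, Scarna13 at 427 CPM per kb and Scarna2, a guide for the U2 small nuclear RNA, at 421 CPM per kb. The order of these 3 was not the same in the groups. Snord17 lay below Scarna13 and Scarna2 in each WT library, with a mean of 351 against 444 and 439 CPM per kb, and above both in each BIT library, with 567 against 409 and 402 CPM per kb, while the ranges of Scarna13 and Scarna2 overlapped. Among H/ACA snoRNAs, Snora74a (also called U19) had 320 CPM per kb, Snora73b 167 and Snora73a 98.6, the Snora73 pair being U17, which acts in the cleavage of the ribosomal RNA precursor. Among the other C/D snoRNAs, Snord15b had 110 CPM per kb and each Snord3b row of 215 bases had 32.1. The reads of U3 are divided between 10 rows, so the value of a single row understates U3. Summed over these rows, U3 had 47.6 CPM in the WT and 51.8 CPM in the BIT mice, against 14.7 and 17 CPM for Snord15b.

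**Figure D2:**
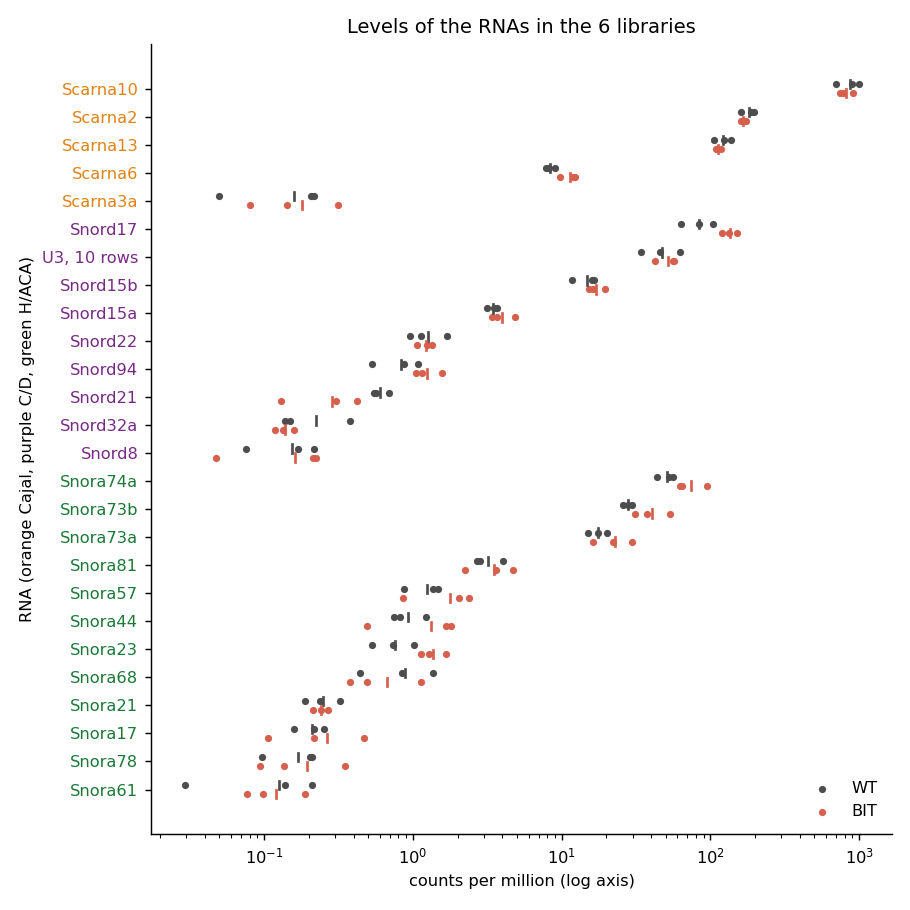
CPM (log axis) of each RNA in the 3 WT and 3 BIT libraries, ordered by class and mean level, where points are libraries, short bars are group means and the 10 rows of U3 are summed. Scarna10 lies at 700 to 995 CPM and is far to the right of all others, while the BIT points of Snord17, Scarna6, Snora74a, Snora73b and Snora23 lie to the right of the WT points.

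U3, which unlike most snoRNAs has its own promoter and directs the first cleavages of the ribosomal RNA precursor, took 10 of the 18 C/D rows. Snord3b1, Snord3b2, Snord3b3 and Snord3b4 are identical copies on chromosome 11, and each is annotated with 2 gene identifiers, one of 215 and one of 216 bases, at the same position. The last 20 bases of the Snord3b1 rows, at chr11:87334063-87334277 and chr11:87334063-87334278 on the plus strand, show how little parts the 2 annotations.
Snord3b1, 215 bases: gggaacgcagtctgagtgga
Snord3b1, 216 bases: ggaacgcagtctgagtggac

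The estimated counts of the 4 copies of one length were equal, so the 4 rows are not independent. The split between the lengths varied between libraries. Each row of 215 bases had 363, 46 and 427 counts in the WT mice and 411, 235 and 306 in the BIT mice, and each row of 216 bases had 156, 347 and 130 in the WT mice and 165, 176 and 169 in the BIT mice. WT replicate 2 was low in the first and high in the second. Summed over the 8 Snord3b rows the counts were whole numbers, with 2075, 1573 and 2226 in the WT mice and 2301, 1645 and 1903 in the BIT mice. The highest library was 11.7 times the lowest in CPM for the rows of 215 bases but 1.79 times for the sum. All 10 U3 rows together, with those of Snord3a on chromosome 10, had 47.6 CPM ± 14.2 (SD, n = 3) in the WT mice and 51.8 CPM ± 7.79 in the BIT mice, and the groups overlapped. A fit with U3 as a single feature, added after the split was seen, gave a log2 fold change of 0.11 (SE 0.18, limma-voom adjusted p = 0.891). The rows by themselves gave 0.98 at 215 bases, 0.07 at 216 bases and -0.62 for Snord3a, none past the test (adjusted p = 0.716, 0.965 and 0.736).

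**Figure D3:**
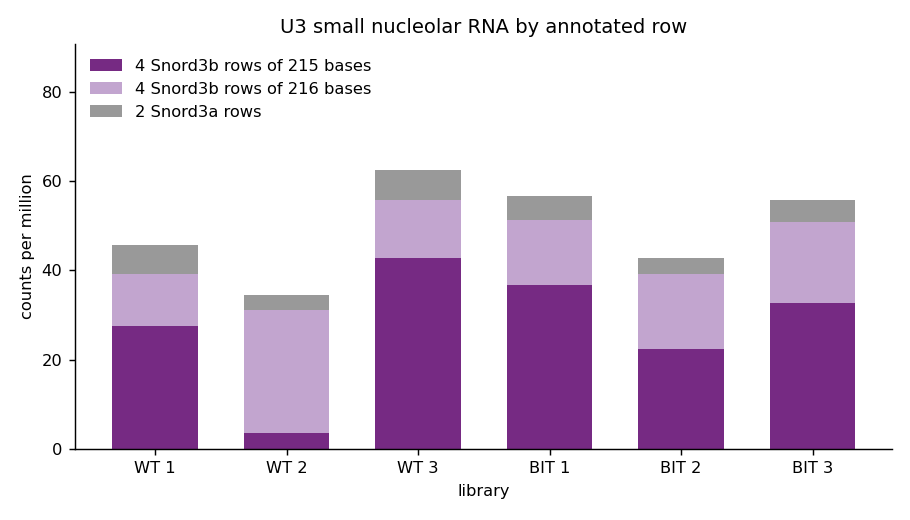
CPM of U3 in each library (bars from 0), split into the 4 Snord3b rows of 215 bases, the 4 of 216 bases and the 2 Snord3a rows. The dark part nearly vanishes in WT replicate 2, where it is 3.64 CPM of 34.4, while the full bars stay between 34.4 and 62.6 CPM.

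The genotypes were compared with limma-voom on quantile-normalized values over the 16105 genes with enough counts, of which 28 were members. By limma-voom with Benjamini-Hochberg adjustment over all genes, 0 of the 28 members were called at an adjusted p below 0.05 compared with 0.137% of all genes tested. EdgeR called 0 members and 14 genes in all, and DESeq2 called 1 member and 0.776% of all genes. The smallest adjusted p of a member was 0.349. At an unadjusted p below 0.05 there were 5 members, all with the higher value in BIT mice, and they were Snord17, Snora23, Snora74a, Snora73b and Scarna6. They are 17.9% of the members tested, against 4.25% of all genes higher in BIT mice at that p. No member was lower at an unadjusted p below 0.05, against 4.32% of all genes. In either direction, 5 members had an unadjusted p below 0.05 with edgeR and 5 with DESeq2, against 7.44% and 7.21% of all genes. The 28 include 9 rows of U3 that share reads, and without these the 5 were among 19. The fitted log2 fold change was above 0 in 22 of the 28 members and 52.3% of all genes, with a median of 0.27 in the members and 0.01 in all genes. Since U3 rows repeat the same values, the 22 are not independent. Without the U3 rows it was above 0 in 14 of 19 members, with a median of 0.295. In these bulk samples, fewer cells that hold an RNA and less of it per cell cannot be told apart.

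Snord17 had the smallest p of the members. It had 83.7, 63 and 104 CPM in the WT mice and 152, 133 and 120 CPM in the BIT mice, so each BIT library lay above each WT library. The level was 1.58 times the WT level in the fit (95% confidence interval 1.24 to 2.01), a log2 fold change of 0.66 (SE 0.15, limma-voom adjusted p = 0.349). Snord17 was called by DESeq2 (log2 fold change 0.72, adjusted p = 0.00473) and by limma-voom on replicates 1 and 2 alone (0.90, adjusted p = 0.0289), the latter without the WT library that goes against its label. Leaving out that library from the full set gave 0.80 with an adjusted p of 0.0846, and over all alternatives the adjusted p ran from 0.00473 to 0.9995. In each of the 15 alternatives the value was higher in BIT mice. The share of all genes called with replicates 1 and 2 alone is not given.

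Among the H/ACA snoRNAs, Snora23, a guide for large-subunit ribosomal RNA, is described here because of its value, as it falls under no rule for the genes named. It had 28, 37 and 41 counts in the WT mice and 51, 54 and 63 in the BIT mice, or 0.762 CPM ± 0.25 (SD, n = 3) and 1.37 CPM ± 0.281. The groups did not overlap, and the fitted log2 fold change was 1.04 (SE 0.27, limma-voom adjusted p = 0.389). With each library left out it stayed between 0.93 and 1.10, the latter without WT replicate 3. These counts are few, and the rank of a gene at this depth is set by a small number of reads.

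Snora74a had 52.9, 44 and 56.2 CPM in the WT mice and 95.7, 62.6 and 64.7 CPM in the BIT mice. Snora73b had 27.9, 25.7 and 29.6 CPM in the WT mice and 53.3, 37.5 and 31.4 CPM in the BIT mice. In both, all BIT libraries lay above all WT libraries, and BIT replicate 1 stood far above the other libraries. The log2 fold change was 0.47 (SE 0.17, limma-voom adjusted p = 0.539) for Snora74a and 0.50 (SE 0.19, adjusted p = 0.543) for Snora73b. Without BIT replicate 1 they were 0.24 and 0.27, and without WT replicate 3 they were 0.51 and 0.52. Snora73a, the near copy of Snora73b, had 17.6 CPM ± 2.55 in the WT and 22.9 CPM ± 6.81 in the BIT mice, with overlapping groups (log2 fold change 0.36, limma-voom adjusted p = 0.681).

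Of the other tested H/ACA snoRNAs, none had an unadjusted p below 0.05. Snora57 had a log2 fold change of 0.51 with a 95% confidence interval of -0.76 to 1.78, and single libraries decided it, with 0.11 without BIT replicate 1, 0.14 without WT replicate 3 and 1.09 without BIT replicate 3. Snora81, from an intron of Eif4a2, had 0.18 (-0.32 to 0.68). Snora44, Snora21 and Snora68 were at means of 1.13, 0.246 and 0.777 CPM, and their intervals were wide, at -1.0 to 1.92, -0.70 to 1.29 and -1.72 to 1.21 on the log2 scale. Over the 9 tested rows of the class the median log2 fold change was 0.46, and it was 0.11 without BIT replicate 1.

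Among the C/D snoRNAs, the pair from introns of Rps3 lay close to WT. Snord15b had 14.7 CPM ± 2.59 in the WT mice and 17 CPM ± 2.22 in the BIT mice, and Snord15a, of which 65.6% of the aligned positions are the same, 3.46 CPM ± 0.286 and 3.99 CPM ± 0.772. Their 95% confidence intervals were -0.12 to 0.58 and -0.33 to 0.83 on the log2 scale. Snord22 from Snhg1 had 1.27 CPM ± 0.393 and 1.22 CPM ± 0.142, and the sign of its small change (0.14) depended on the normalization. Snord94, named for its value, had 57, 27 and 35 counts in the WT mice and 70, 44 and 43 in the BIT mice, and its log2 fold change was 0.78 (SE 0.41, limma-voom adjusted p = 0.643).

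Snord21, from an intron of the ribosomal protein gene Rpl5, had the most negative fitted value of the members and is also named for it. Its estimated counts were 36.8, 28.8 and 21.8 in the WT mice and 18.8, 12.8 and 4.84 in the BIT mice. In CPM the groups did not overlap, at 0.545 to 0.695 against 0.129 to 0.419, but after quantile normalization they did. The log2 fold change was -1.0 (SE 0.61, limma-voom adjusted p = 0.686), and without BIT replicate 3, the library with the fewest counts, it was -0.31. Without WT replicate 3 it was -1.22.

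The abundant Cajal body RNAs had the most counts and the narrowest intervals. Scarna10 had 892, 995 and 700 CPM in the WT mice and 916, 746 and 780 CPM in the BIT mice, all BIT libraries lying within the range of the WT libraries. The BIT level was 0.95 times the WT level (95% confidence interval 0.781 to 1.16). Scarna2 had 182 CPM ± 19.3 and 167 CPM ± 6.58, a ratio of 0.884 (0.734 to 1.06), and Scarna13 had 122 CPM ± 15.4 and 112 CPM ± 4.32, a ratio of 0.889 (0.727 to 1.09). None passed the test (limma-voom adjusted p = 0.892, 0.703 and 0.736). Scarna6 was the exception in its class, with 8.97, 7.85 and 8.26 CPM in the WT mice and 12.4, 11.9 and 9.69 CPM in the BIT mice (log2 fold change 0.44, SE 0.17, limma-voom adjusted p = 0.551). Its groups did not overlap in CPM but did after quantile normalization. Without WT replicate 3 its log2 fold change was 0.37, and those of Scarna10, Scarna2 and Scarna13 were -0.18, -0.19 and -0.19.

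**Figure D4:**
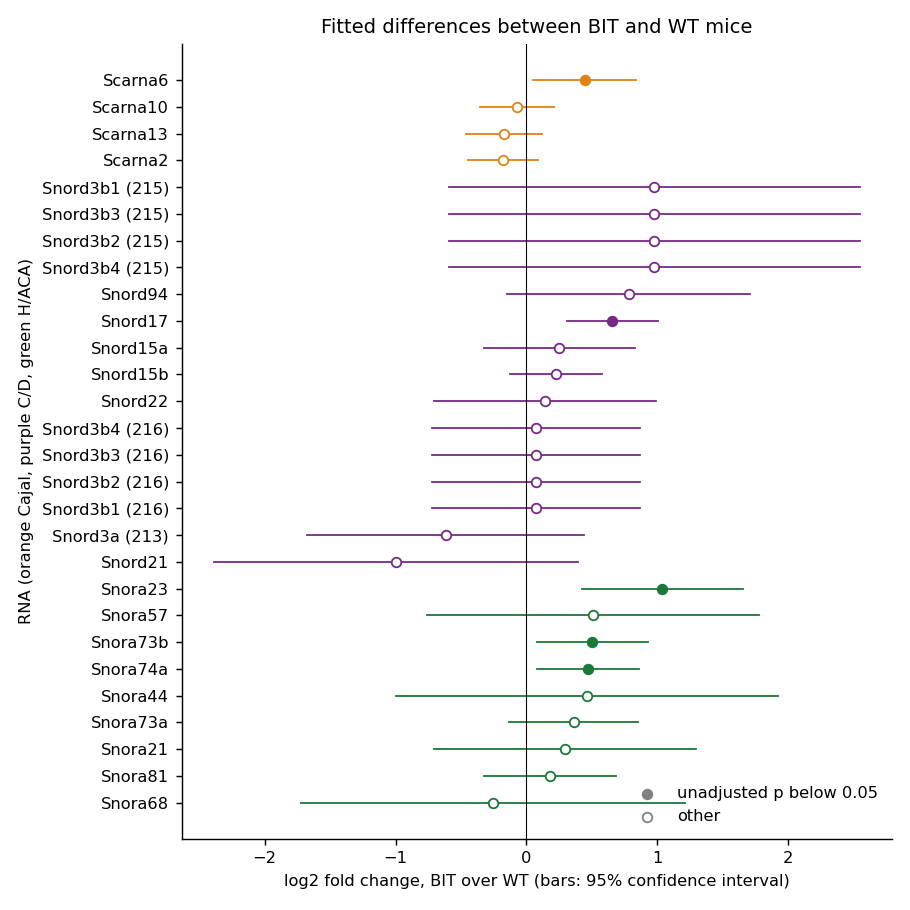
Fitted log2 fold change of BIT over WT mice for the 28 members tested (points) with the 95% confidence interval (bars), by class, where filled points have an unadjusted p below 0.05 and the U3 rows carry their length in bases. The filled points are Scarna6, Snord17, Snora23, Snora73b and Snora74a, all to the right of 0, and the wide bars at the top of the C/D class belong to the 4 equal U3 rows of 215 bases.

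By quantile-normalized values, the groups of 4 members did not overlap with BIT above WT (Snord17, Snora23, Snora74a and Snora73b), which is 14.3% of the members tested against 7.38% of all genes. No member lay with all BIT below all WT libraries, against 5.96% of all genes. The 7 members that were not tested had sums between 32.64 and 98.07 counts. Snord32a had 20, 7 and 6 counts in the WT mice and 6, 5 and 6 in the BIT mice, and Snord8 had 9, 11 and 3 against 10, 2 and 8. Scarna3a, Snora17, Snora78 and Snora61 had at most 20.96 counts in any library, and the second row of Snord3a had 98.07 counts in BIT replicate 2 and 0 in the others. No fold is given for these 7.

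Summed by class, the H/ACA members took 106, 92.2 and 114 CPM in the WT mice and 189, 132 and 121 CPM in the BIT mice. The C/D members, U3 included, took 153, 115 and 189 CPM in the WT mice and 237, 197 and 199 CPM in the BIT mice. In both classes all BIT libraries lay above all WT libraries, by mean ratios of 1.41 and 1.38. Snord17 and U3 made up 84.5 to 89.2% of the C/D sum of a library, and Snora74a and the Snora73 pair 92 to 94.8% of the H/ACA sum, so that these ratios are largely those of the few RNAs above. The Cajal class took 1167, 1336 and 1020 CPM in the WT mice and 1211, 1042 and 1060 CPM in the BIT mice, a ratio of 0.94 with overlapping groups. No test was made on these sums.

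The classes varied between libraries of the same group. The median deviation of the 9 tested H/ACA members from their group mean was 0.46 on the log2 scale in BIT replicate 1 and -0.49 in BIT replicate 3. That of the 15 tested C/D members, of which 9 were rows of U3, was 0.40 in WT replicate 1 and 0.37 in BIT replicate 1. In the 4 Cajal members it stayed between -0.11 and 0.22. Of other short nuclear RNAs, taken after the snoRNAs had been seen, Rmrp, the RNA of RNase MRP, is listed in 2 rows with log2 fold changes of 0.20 and 0.30 (limma-voom adjusted p = 0.676 and 0.688). Rpph1, the RNA of RNase P, had 18490 CPM ± 3308 (SD, n = 3) in the WT mice and 18760 CPM ± 3060 in the BIT mice. Rn7sk had 31410 CPM ± 4432 in the WT mice and 28880 CPM ± 4120 in the BIT mice. Its log2 fold change was below 0, at -0.13 (limma-voom adjusted p = 0.715). The 4 B cell markers summed to 13.8 to 22.8 CPM in the WT and 10.7 to 14.9 CPM in the BIT libraries, and the 4 myeloid markers to 9.09 to 14.5 and 7.04 to 9.42 CPM. The 4 B cell and the 3 tested myeloid markers all had a fitted value below 0, none at an unadjusted p below 0.05. Of the 5 CD8 T cell markers, Cd3g had -0.34 at an unadjusted p of 0.0166 (limma-voom adjusted p = 0.531). Cd8a and Cd3d had -0.04 and -0.17, and Cd8b1 and Cd3e had 0.12 and 0.10. The erythroid markers Hbb-bs and Hba-a1 had values above 0 (0.96 and 1.55), neither at an unadjusted p below 0.05. They summed to 1.06 to 7.425 CPM in the WT and 2.885 to 22.4 CPM in the BIT libraries. The part of these markers in the differences of the snoRNAs was not tested.

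All 35 members lay within the span of a host gene on the same strand, and 24 genes served as hosts. The host of Snord17 is Snx5, a sorting nexin, and that of Snora23 is Ipo7, a nuclear import receptor. Snx5 had 90.6 CPM ± 2.01 in the WT mice and 92.2 CPM ± 1.11 in the BIT mice (log2 fold change -0.02), and Ipo7 130 CPM ± 4.91 and 147 CPM ± 2.3 (0.12). The log2 ratio of Snord17 to Snx5 was -0.07, -0.54 and 0.19 in the WT mice and 0.69, 0.52 and 0.40 in the BIT mice. That of Snora23 to Ipo7 was -7.72, -7.54 and -7.48 in the WT mice and -6.73, -6.64 and -6.62 in the BIT mice. In both pairs the ratios of the groups did not overlap, as the levels of these 2 members did not. The ratios overlapped in the other 26 of the 28 tested pairs, those of Scarna6, Snora73b and Snora74a included. For Scarna6 and its host Atg16l1, an autophagy gene, the change of the host was 0.10, and for Snora73b and Rcc1, a regulator of nuclear transport, it was 0.22. Snora73a also overlaps an exon of Snhg3. Tex14, listed for the Snord3b copies, spans them, and it has an exon that overlaps Snord3b4.

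**Figure D5:**
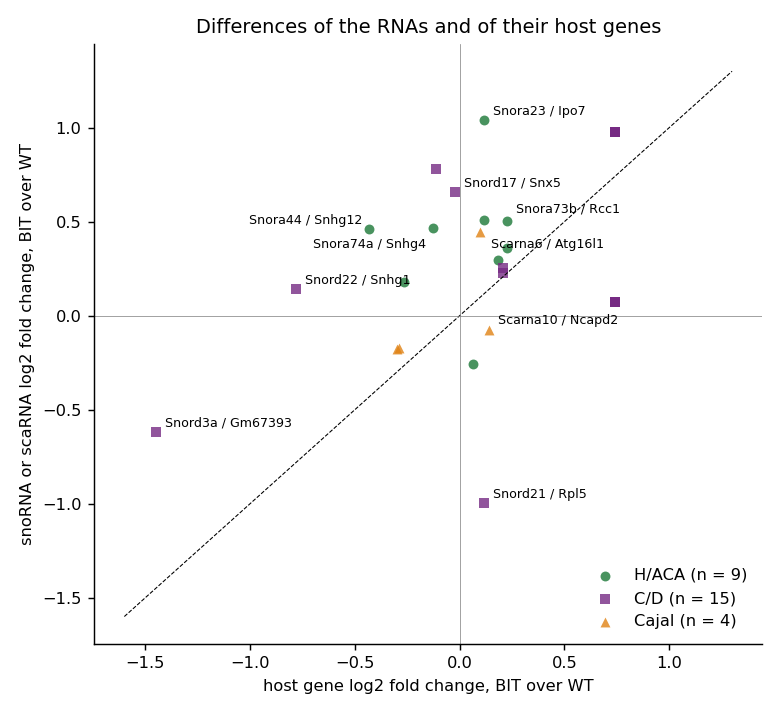
Log2 fold change (BIT over WT) of each tested member against that of its host gene, with 28 pairs by class and the line of equal change dashed. Snord17 and Snora23 lie above hosts near 0, Snord22 and Snora44 lie near or above 0 over hosts below 0, and the 8 Snord3b rows fall on 2 points at Tex14.

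Of the 24 hosts, 0 were called by limma-voom, 0 by edgeR and 0 by DESeq2, and by limma-voom 4 had an unadjusted p below 0.05, all lower in BIT mice, namely Snhg1 (-0.78), Snhg12 (-0.43), Eif4a2 (-0.27) and Gm67393 (-1.45). They are 16.7% of the hosts, against the 4.32% of all genes lower at that p, and edgeR gave 2 and DESeq2 4 hosts at an unadjusted p below 0.05. Without WT replicate 3 the values were -0.63, -0.41, -0.25 and -1.57, and 0 hosts were called and 3 were lower at an unadjusted p below 0.05, against 6.43% of all genes. Snhg1 and Snhg12 are genes known mainly for the snoRNAs in their introns. Snhg1 had 46.8 CPM ± 11.5 in the WT and 29.8 CPM ± 14.9 in the BIT mice (limma-voom adjusted p = 0.537), and Snhg12 had 23 CPM ± 2.1 and 17.3 CPM ± 3.6 (adjusted p = 0.531). The fitted values of their snoRNAs were 0.14 for Snord22 of Snhg1 and 0.46 for Snora44 of Snhg12, with wide intervals and ratios to the host that overlapped between the groups, so that a difference from the host was not shown. The 5 ribosomal protein hosts had changes between 0.06 and 0.21. Over the 28 pairs the median difference of member and host was 0.23 and Pearson's r was 0.416, which is a description across genes that share libraries, with Tex14 counted 8 times for U3. With each host counted once the values were 0.35 and 0.372 over 19 hosts, and without BIT replicate 1 the median difference was 0.007. Reads are also shared, since 23 of the 35 members overlap an exon of a gene of another symbol on the same strand, among them 8 a transcript that keeps the intron, and 6 more overlap only their own second annotation. Gm67393 covers Snord3a. Of the 6 members without such an overlap or a copy, 4 were tested, and they were Snord17 (0.66), Snora23 (1.04), Scarna6 (0.44) and Snord15a (0.25).

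The proteins that make, carry and use these RNAs showed no call. Of 42 genes in 6 lists, all were tested, 0 had an adjusted p below 0.05 by limma-voom, by edgeR or by DESeq2, and 0 had an unadjusted p below 0.05 by limma-voom. The median log2 fold change was 0.02, against 0.01 over all genes. Of the C/D core proteins, Fbl, the methylase fibrillarin, had -0.03 (95% confidence interval -0.29 to 0.24), Nop56 -0.08, Nop58 0.01 and Snu13 -0.13. Of the H/ACA core, Dkc1, the pseudouridine synthase dyskerin, had 0.15 (-0.20 to 0.49), Nhp2 -0.09, Gar1 0.08 and Nop10 -0.39 (-0.89 to 0.10), the largest value of the lists. Among 13 assembly factors the values lay between -0.28 and 0.25, the highest being Naf1, which loads the H/ACA core, at an unadjusted p of 0.0689 (limma-voom adjusted p = 0.63).

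The Cajal body genes Coil, Wrap53, Smn1, Gemin2 and Sart3 had values between -0.19 and 0.14. The 10 proteins of the U3 processome, among them Utp15 at 0.18 and Utp20 at 0.14, lay between -0.07 and 0.18. Of the genes for the ends and turnover of intron RNAs, the debranching enzyme Dbr1 had 0.10 (-0.23 to 0.43), the nuclear exosome subunit Exosc10 0.08 and the exonuclease Xrn2 -0.09 (-0.31 to 0.13). In all 42 genes the 95% confidence interval lay within 2-fold in both directions. Without WT replicate 3, 0 were called and 1 was lower at an unadjusted p below 0.05, against 6.43% of all genes.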

How the data were processed

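RNA-seq libraries of sorted CD8+ T cells from single mice (WT, n = 3; BIT, n = 3) were grouped by their labels. The authors used Cutadapt 1.18 for trimming and STAR 2.7.0f for alignment to GRCm39, and they deposited estimated counts per gene from RSEM 1.3.1 on Gencode M38, which divide shared reads between rows and are not normalized. Tool versions are those of the submitters' processing notes. The counts were rounded, genes were kept with filterByExpr of edgeR 4.0.16, and the groups were compared with limma 3.58.1 (voom, quantile normalization, eBayes) in R 4.3.3, with Benjamini-Hochberg adjustment over all genes, after a test on simulated data. CPM were taken on library totals of 37467678 to 52922675. A count of 0 allows up to 3 counts, or 0.0567 to 0.0801 CPM, for counting error only.

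Positions, hosts, exons and lengths were from Gencode M39, which held all 167 rows under the same symbol. A host was the same-strand gene spanning the RNA with the highest counts. The members, the lists and the rule for the genes named were chosen with earlier results of these data known. Genes were named that had an adjusted p below 0.05, the largest changes per class at a mean of at least 50 counts, the highest levels per kb, RNAs with known special roles, and those next to the sum of 30. Alternatives were TMM, edgeR's quasi-likelihood test, DESeq2 1.42.0, other filters, a replicate block, replicate 3 as a batch, each library left out, and members without shared exons. A fit of U3 as 1 feature and the Cajal share without Scarna10 were added after seeing the data.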

Additional observations from a re-analysis of the deposited data

How the results depend on the processing

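The number of members called at an adjusted p below 0.05 was 0 by limma-voom, and it was 1, Snord17, by DESeq2 and by replicates 1 and 2 alone. It was 0 under the other alternatives run, as was the number of snoRNP protein genes called under all of those run for it. The members at an unadjusted p below 0.05, 5 in the main comparison, were 2 without WT replicate 2, 3 without BIT replicate 1 and 9 without BIT replicate 3. Without WT replicate 3, whose library goes against its label, they were 8. In that fit 5.27% of all genes were higher and 6.43% lower at that p, against 4.25% and 4.32% in the main comparison. The shares of all genes in the other left-out fits and with replicates 1 and 2 alone are not given. Those counts therefore do not set the members against all genes.

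The numbers of the replicates were not taken to pair the mice, as the deviations of same-numbered WT and BIT libraries correlated by 0.139, 0.025 and 0.332. Libraries of different number gave -0.299 to 0.244, so the value of the replicate 3 libraries was the highest. Whether these 2 libraries share a batch was not tested. With the replicate number as a block, 0 members were called and 8 had an unadjusted p below 0.05. With replicate 3 as a batch, 0 were called and 6 had an unadjusted p below 0.05, and Snord17 had a limma-voom adjusted p of 0.138. The shares of all genes in these 2 fits are not given.

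The class medians of the log2 fold change ran, with each library left out, from 0.11 to 0.64 in H/ACA, from 0.07 to 0.39 in C/D and from -0.18 to -0.001 in Cajal. The BIT over WT ratios of the class sums ran from 1.22 to 1.54, from 1.23 to 1.57 and from 0.882 to 1.01. Restricted to members with no shared exon or copy, the H/ACA median was 1.04 (Snora23 alone) and the Cajal median 0.44 (Scarna6 alone), the sums had ratios of 1.79, 1.60 and 1.35, and Pearson's r with the hosts was -0.386 over 4 pairs, since few RNAs were left. With all members r was 0.416, and 0.278 to 0.473 with each library left out. The median difference of member and host ran from 0.007 (without BIT replicate 1) to 0.42.

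The sign of Snord22 turned to -0.024 with TMM, -0.048 with edgeR and -0.045 with DESeq2, and left-out libraries gave values from -0.075 to 0.527. Scarna10 ran from -0.18 to 0.029, positive without WT replicate 2. Snord17 was called by DESeq2 (0.72) and with replicates 1 and 2 alone (0.90). Low counts limit the low members, as a row with 30 counts has about 5 per library. The short snoRNAs with few or no counts cannot be compared.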
